A study of Mus musculus with 6 samples.

Results

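The genes described here are the hosts of circular RNAs (circRNAs) in mouse aorta whose symbols begin with Rnf, Trim, Usp or Ube followed by a digit, the naming pattern of many ubiquitin ligases, ubiquitin proteases and ubiquitin-conjugating enzymes. The rule that chose them used the symbol and no measured value, though earlier results of these data were known. Of 7051 named host genes in the deposited tables, 96 matched, with 283 of the 20532 listed circRNAs. The set held 35 Rnf hosts with 93 circRNAs, 13 Trim hosts with 31, 35 Usp hosts with 114, and 13 Ube hosts with 45. A symbol does not fix an activity. Usp6nl encodes a GTPase-activating protein for Rab proteins, Ube2cbp is named for binding an E2 enzyme, and Ube2f conjugates NEDD8 in place of ubiquitin.

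Ubiquitin is a small protein that is joined to other proteins by a relay of an activating enzyme (E1), a conjugating enzyme (E2) and a ligase (E3), and removed by deubiquitinases. The Ube2 genes encode E2 enzymes, Ube3 and Ube4 genes encode ligases or chain-elongating factors, and Rnf and Trim proteins carry a RING domain that brings a loaded E2 to its substrate. Usp genes form the main family of deubiquitinases, and a chain of ubiquitin can send a protein to the proteasome or change its partners. A circRNA is an RNA loop made when a splice donor is joined back to an acceptor upstream of it, so a read across that back-splice junction marks the loop and not the linear mRNA.

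RNA was sequenced from aortae of 3 groups of mice with 2 libraries each. ApoE-/- mice, which lack apolipoprotein E and are prone to atherosclerosis, started a high-fat diet when they were 3 months old and stayed on it for 3 months. ApoE-/- mice on chow and C57BL/6J wild-type mice on chow were the controls, and the labels state no separate age for them. The apoE knockout is carried by all cells of the animal, and nothing in the labels says whether a library is 1 mouse or a pool, so the p-values below measure the spread between these libraries, which may be technical. The columns of the library labelled ApoE-/- chow 1 bear the name of a C57BL/6J sample. The label was kept. Which of the label and the column name is right was not settled, and each genotype difference below is subject to it.

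Each table gave, per circRNA, the reads across the back-splice junction (junction reads) and all reads assigned to its genomic interval. The difference, called interval reads here, also holds reads of linear mRNA, pre-mRNA and overlapping genes. The libraries held 69130844 to 77352690 reads in total and 3706 to 34805 junction reads, with the lowest junction yield in C57BL/6J chow 2. Of 10 smooth muscle markers 8 were hosts, and their summed interval level was 7077 and 12350 CPM (read counts scaled to library size by edgeR) in high-fat aortae, 9073 and 7241 in ApoE-/- chow and 13230 and 2832 in C57BL/6J. Of 12 macrophage markers 7 were hosts, at 614 and 730 CPM in high-fat, 240 and 344 in ApoE-/- chow and 285 and 168 in C57BL/6J, so the high-fat libraries were the highest. In the edgeR fit of high-fat against both chow groups 5 of the 7 had a positive and 2 a negative log2 fold change, with 4 and 3 against ApoE-/- chow. The other 5, Adgre1, Cd68, Csf1r, Trem2 and Lyz2, were not among the host symbols. Of 9 fibroblast markers 7 were hosts. Their summed level was 4210 and 5241 CPM in high-fat, 3314 and 3317 in ApoE-/- chow and 4201 and 2181 in C57BL/6J. All 7 had a positive log2 fold change in high-fat against both chow groups (median 0.53). So did all 8 smooth muscle hosts (median 0.29), though their summed levels overlapped between groups. In whole aorta, fewer cells of a type and less RNA per cell cannot be told apart.

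Nearly every circRNA of the set was rare. The 283 circRNAs had 2058 junction reads in all, 169 of them had at most 2 reads, and 218 (77.0%) were seen in a single library, against 78.5% of the 18399 circRNAs of all named hosts. Only 3 had a read in all 6 libraries, and 11 more in 5. At the level of genes, 8 of the 96 hosts (8.33%, against 5.33% of all named hosts) had junction reads in every library: Rnf169, Rnf13, Trim33, Rnf114, Rnf138, Ube4b, Usp13 and Ube2k. By contrast 52 hosts had no more than 5 reads over the whole series. Reads were concentrated in few genes, with 22.8% from Rnf169 and 42.8% from Rnf169, Ube2d2a, Rnf13 and Trim33 together.

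The families differed in how many of their genes gave a circRNA. All 96 symbols were found in RefSeq (GRCm38.p6). Of the 56 RefSeq protein-coding genes with a Usp symbol, 62.5% were hosts, against 42.2% of 83 Rnf genes, 31.0% of 42 Ube genes and 19.1% of 68 Trim genes. Over all protein-coding symbols the share was 28.1%. The share was thus above that of all protein-coding genes for Usp and Rnf, near it for Ube and below it for Trim, as a description, since genes differ in expression and in exon number. Among the names chosen for what they are known for, Rnf213, Ube3a, Trim28, Trim54, Trim55, Trim63, Trim72, Usp9y and Ube2l6 were not among the host symbols of the tables used here.

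All 283 intervals lay inside the bounds of their host gene. The median distance between the joined ends was 3975 bp, against 2437 bp for all named hosts, and ranged from 108 bp for a circRNA of Ube2e3, an E2 enzyme, to 68414 bp for one of Ube2cbp. By family the median was 3529 bp for Rnf, 2015 bp for Trim, 4180 bp for Usp and 6536 bp for Ube. A host had a median of 2 circRNAs, and 34 hosts had 1. The most, 13, came from Ube4b, a U-box ligase that extends ubiquitin chains, followed by Usp32 with 12, and Usp13 and the X-linked Usp9x with 10 each. The most in the other families were 9 from Rnf13 and 7 from Trim37. Some circRNAs of a host shared an end. In Rnf13, 4 of the 9 began at chr3:57769040, and in Ube2cbp 4 of 7 shared the start at chr9:86422841. Usp13, Usp48 and Rnf150 each had 3 circRNAs with a common start, and Usp32 had 3 with a common end.

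Back-splicing uses the acceptor site of the first exon in the loop, which in the genome follows an AG dinucleotide. The letters could be read only where that site lay in a RefSeq promoter window (GRCm38.p6, 250 bases before to 50 after a gene start), and 2 such sites inside genes of the set are printed to show what a back-splice acceptor looks like. Each line gives 30 bases before and 30 after the point of joining, on the strand of the host gene, with the AG directly before the exon in capitals. The Usp15 site is at chr10:123181771-123181830 on the minus strand, and its circRNA had 1 junction read in high-fat 1. The Rnf145 site is at chr11:44531246-44531305 on the plus strand and was shared by a pair of circRNAs, with 3 reads in high-fat 1 and 2 reads in high-fat 2.
Usp15: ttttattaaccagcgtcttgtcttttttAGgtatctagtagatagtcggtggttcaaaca
Rnf145: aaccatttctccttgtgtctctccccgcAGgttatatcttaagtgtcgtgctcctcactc
In both lines a run rich in pyrimidines stands before the AG. Of all 133 circRNAs of named hosts whose acceptor could be read in this way, 84.2% had an AG at that place. The windows of both printed sites belong to neighbouring genes, Gm4129 and Gm51891, and not to the host itself. Another readable site of the set, in Rnf7 at chr9:96478641-96478700, is not printed. It lies in the window of Rnf7 itself and has the AG, but with guanines directly before it. Its circRNA had 1 junction read, in high-fat 2.

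Rnf169 was the leading host of the set by a wide margin. It encodes a RING protein related to Rnf168 that binds ubiquitin-marked chromatin at DNA breaks. Its junction reads were 158 and 50 in the high-fat libraries, 111 and 44 in ApoE-/- chow and 82 and 24 in C57BL/6J. As a share of each library these were 454 and 303 per 100000 junction reads in the high-fat libraries, 762 and 303 in ApoE-/- chow and 308 and 648 in C57BL/6J, with a mean of 463 ± 199 (SD, n = 6). It ranked 10 of 7051 hosts by this level. The 3 groups overlapped, and the difference was −0.38 ± 0.67 (log2 fold change ± SE) for high-fat against ApoE-/- chow and 0.29 ± 0.68 for ApoE-/- chow against C57BL/6J, neither past the threshold (edgeR adjusted p = 0.999 and adjusted p = 1).

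Almost all of this signal was 1 circRNA at chr7:99935162-99955540, which spans 20379 bp. It had 158 and 44 junction reads in the high-fat libraries, 106 and 44 in ApoE-/- chow and 76 and 24 in C57BL/6J, and averaged 447 ± 199 per 100000 (SD, n = 6). The interval also holds the pseudogene Gm18959. In Rnf169, junction reads made up 62.9% of junction and interval reads together, and in every library between 54.9% and 70.9%. Reads assigned to the listed intervals of Rnf169 thus came mostly from the junction itself. These intervals overlap one another, and reads of overlapping intervals were counted unevenly, as described below. What this does to the share was not tested. The pooled share was 7.26% over the whole set and 1.29% over all named hosts. The median share of a host was closer, at 3.44% in the set and 2.70% over all named hosts.

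Among the other Rnf hosts, Rnf13 came next. It encodes a transmembrane ligase of endosomes and lysosomes, and had 41 and 12 junction reads in the high-fat libraries, 25 and 22 in ApoE-/- chow and 40 and 1 in C57BL/6J. Rnf114, a RING ligase with further zinc fingers, was read 23 and 8 times in high-fat, 5 and 12 in ApoE-/- chow and 14 and 2 in C57BL/6J. Both were found in all 6 libraries, and their mean levels were 115 ± 55.4 and 56.4 ± 16.5 per 100000 (SD, n = 6). For Rnf114 the level in high-fat aortae, 57.3 ± 12.5, was close to 58.5 ± 34.2 in ApoE-/- chow and 53.3 ± 0.951 in C57BL/6J (SD, n = 2 each). Rnf150, a membrane RING protein, had 23 and 8 in high-fat, 6 and 13 in ApoE-/- chow and 13 and 0 in C57BL/6J. Rnf216, a ligase also called Triad3, had 13 and 7, 11 and 4, and 18 and 0 in the same order, and the leading 1 of its 8 circRNAs spanned 854 bp. Rnf138, which acts in DNA break repair, had 51 reads and was at 26 and 7 in high-fat, 9 and 3 in ApoE-/- chow and 5 and 1 in C57BL/6J. In all of these hosts but Rnf114, the C57BL/6J chow 2 library held 0 reads or 1.

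Rnf214 had 40 junction reads, at 25 and 0 in high-fat, 11 and 2 in ApoE-/- chow and 2 and 0 in C57BL/6J. High-fat 1 thus held most of its reads. Its listed intervals held 0 interval reads. Each of them was wholly covered by its other listed intervals, and 87.1% of such covered intervals of the set held no interval read. The 0 is therefore not read as a trait of the gene.

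Trim33, also called TIF1-gamma, is a nuclear ligase that acts on Smad4 in TGF-beta signalling, and it was the main Trim host. Its junction reads were 37 and 18 in high-fat, 14 and 8 in ApoE-/- chow and 29 and 5 in C57BL/6J. Per 100000 junction reads it was lowest in ApoE-/- chow, at 108 ± 1.92 in high-fat, 75.6 ± 29.0 in ApoE-/- chow and 122 ± 18.3 in C57BL/6J (SD, n = 2 each). A circRNA of 1205 bp at chr3:103310309-103311513 was seen in all 6 libraries with 32 and 11, 12 and 8, and 27 and 5 reads, in that order of groups. Trim37, a ligase linked to peroxisomes and centrosomes, was at 11 and 10 in high-fat, 3 and 3 in ApoE-/- chow and 10 and 0 in C57BL/6J. Trim35 was at 3 and 6 in high-fat, 3 and 9 in ApoE-/- chow and 4 and 0 in C57BL/6J. Trim24, a nuclear ligase of p53, was at 11 and 3 in high-fat, 4 and 0 in ApoE-/- chow and 3 and 0 in C57BL/6J. Trim37, Trim35 and Trim24 were not read in C57BL/6J chow 2. The remaining Trim hosts had 6 reads or fewer.

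Ube2d2a encodes an E2 enzyme that works with many RING ligases. It had 83 and 0 junction reads in the high-fat libraries, 18 and 18 in ApoE-/- chow and 41 and 0 in C57BL/6J, all from 1 circRNA at chr18:35793465-35801367. It was less even than Rnf169, Rnf13 and Trim33, with 106.7 ± 92.7 per 100000 (SD, n = 6) and no read in 1 library of each of 2 groups. A count of 0 allows up to 18.2 per 100000 in high-fat 2 and up to 80.9 in C57BL/6J chow 2, both below the level in the other library of the group, 238 in high-fat 1 and 154 in C57BL/6J chow 1. Ube2k, an E2 that builds chains for the proteasome, had 29 and 6 in high-fat, 12 and 2 in ApoE-/- chow and 2 and 1 in C57BL/6J. Ube4b had 8 and 2 in high-fat, 4 and 7 in ApoE-/- chow and 9 and 6 in C57BL/6J, spread over its 13 circRNAs, and its only circRNA in 5 libraries, at chr4:149383738-149387216, had at most 4 reads in any of them. Besides these, Ube2e3 had 41 reads, the HECT ligase Ube3c 18, and Ube2w, an E2 that modifies the amino end of proteins, 14, of which 8 and 4 were in high-fat, 0 and 0 in ApoE-/- chow and 0 and 2 in C57BL/6J.

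No Usp host reached the level of Rnf169, Rnf13, Ube2d2a or Trim33. Usp48, a nuclear deubiquitinase, led by read count with 41 reads, at 7 and 8 in high-fat, 9 and 10 in ApoE-/- chow and 7 and 0 in C57BL/6J. Usp13, which acts in autophagy and on endoplasmic reticulum substrates, had 6 and 6 in high-fat, 2 and 11 in ApoE-/- chow and 8 and 2 in C57BL/6J, the only Usp host seen in every library. Usp30, a deubiquitinase of the mitochondrial outer membrane that opposes mitophagy, had 13 and 3, 4 and 5, and 10 and 0 in the same order, all from 1 circRNA. Usp32 was at 10 and 6 in high-fat, 5 and 7 in ApoE-/- chow and 0 and 1 in C57BL/6J, spread over 12 circRNAs, none of them with more than 5 reads in a library. Usp34, Usp28 and Usp3 owed most of their reads to 1 library. Usp34 (33 reads), a regulator of Wnt signalling, owed 19 of them to ApoE-/- chow 1. Usp28 (30 reads), known for stabilising Myc, owed 16 to C57BL/6J chow 1. Usp3 (34 reads), a histone deubiquitinase, owed 23 to high-fat 1.

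A few genes gave several reads in 1 library and none elsewhere. Usp18, which removes the ubiquitin-like protein ISG15 and is induced by interferon, had 7 reads, all in high-fat 2. Rnf111, a ligase of TGF-beta signalling, and Usp7, a deubiquitinase of Mdm2 and p53, had 5 reads each, all in high-fat 1. Rnf187 had 5 reads, all in C57BL/6J chow 1.

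**Figure D1:**
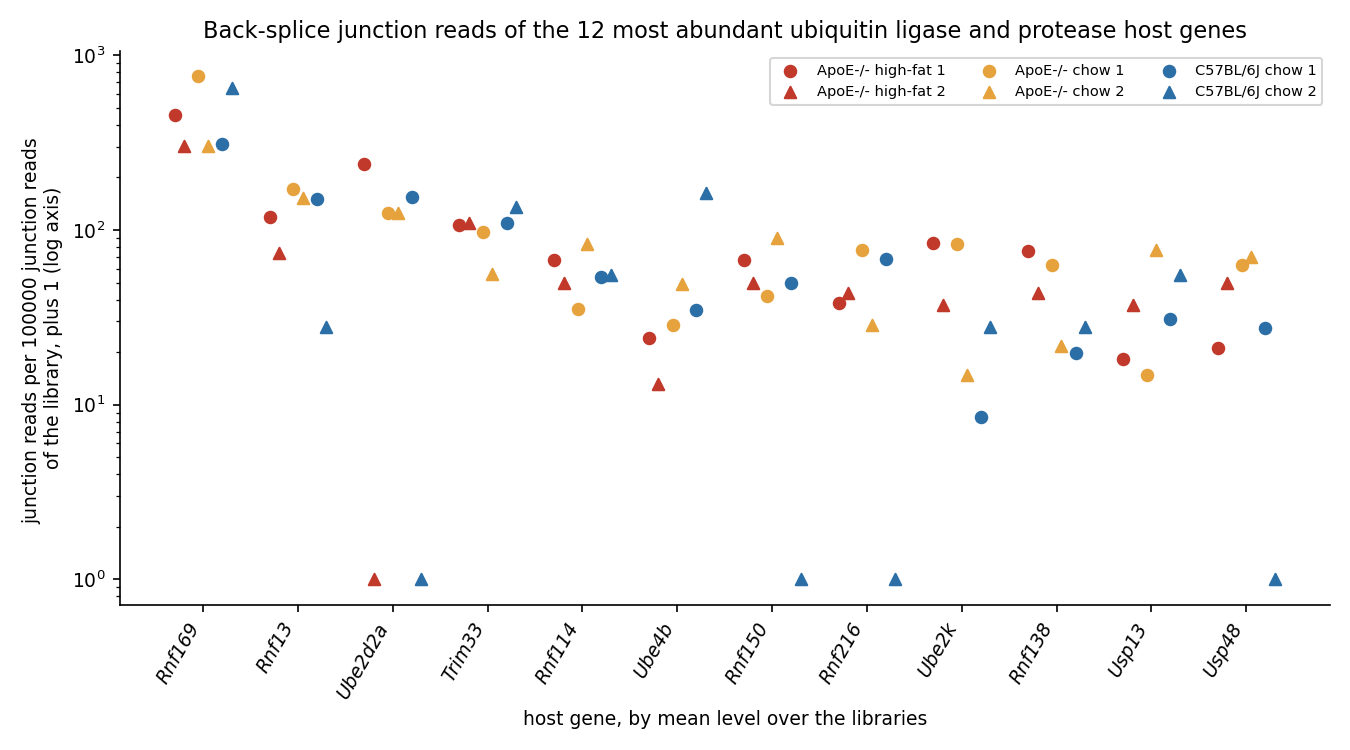
Junction reads per 100000 junction reads of the library, plus 1, on a log axis, for the 12 hosts of the set with the highest mean; each point is 1 library, coloured by group. Rnf169 lies at 303 to 762 in all libraries, and points on the lowest line are libraries with 0 reads.

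Of all junction reads, the set's share was 2.10% and 1.59% in high-fat, 2.25% and 1.76% in ApoE-/- chow and 1.56% and 1.75% in C57BL/6J. Group means were 1.85 ± 0.361%, 2.00 ± 0.349% and 1.66 ± 0.137% (SD, n = 2 each), and the ranges overlapped. As a share of junction reads, the overlap with C57BL/6J rested on Rnf169. Without it the means were 1.47 ± 0.254% in high-fat, 1.47 ± 0.0252% in ApoE-/- chow and 1.18 ± 0.103% in C57BL/6J, and the 4 ApoE-/- libraries (1.29% to 1.65%) lay above both C57BL/6J libraries (1.25% and 1.11%). The nearest libraries were high-fat 2, with 213 of 16511 reads, and C57BL/6J chow 1, with 333 of 26605. C57BL/6J chow 2 had only 41 such reads. Rnf169 was left out as the leading host, with the values known, and the gap was not tested. Scaled to total reads in place of junction reads (RPM), the set had 9.59 and 3.43 RPM in high-fat, 4.24 and 3.38 in ApoE-/- chow and 5.78 and 0.940 in C57BL/6J, highest and lowest in the libraries with the most and the fewest junction reads. Without Rnf169 it was at 7.52 and 2.78 RPM in high-fat, 2.805 and 2.796 in ApoE-/- chow and 4.64 and 0.593 in C57BL/6J. On this scale the ApoE-/- and C57BL/6J libraries overlapped. The conflict of label and column name in ApoE-/- chow 1 bears on both scales. With 2 libraries a group, an exact permutation test of a single value cannot go below p = 0.333.

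Within the set, Rnf hosts supplied 1048 of the 2058 junction reads, Usp hosts 416, Ube hosts 381 and Trim hosts 213. The Trim share was 0.204% and 0.230% in high-fat, against 0.178% and 0.158% in ApoE-/- chow and 0.184% and 0.162% in C57BL/6J, and did not overlap between high-fat and either chow group, whereas in RPM of total reads the high-fat libraries (0.930 and 0.496) and C57BL/6J (0.682 and 0.0868) overlapped. The Usp share was 0.351% and 0.436% in high-fat, 0.460% and 0.420% in ApoE-/- chow and 0.304% and 0.351% in C57BL/6J. The Ube share was 0.494% and 0.182% in high-fat, 0.329% and 0.358% in ApoE-/- chow and 0.259% and 0.270% in C57BL/6J, so the high-fat libraries lay on either side of the other 4.

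**Figure D2:**
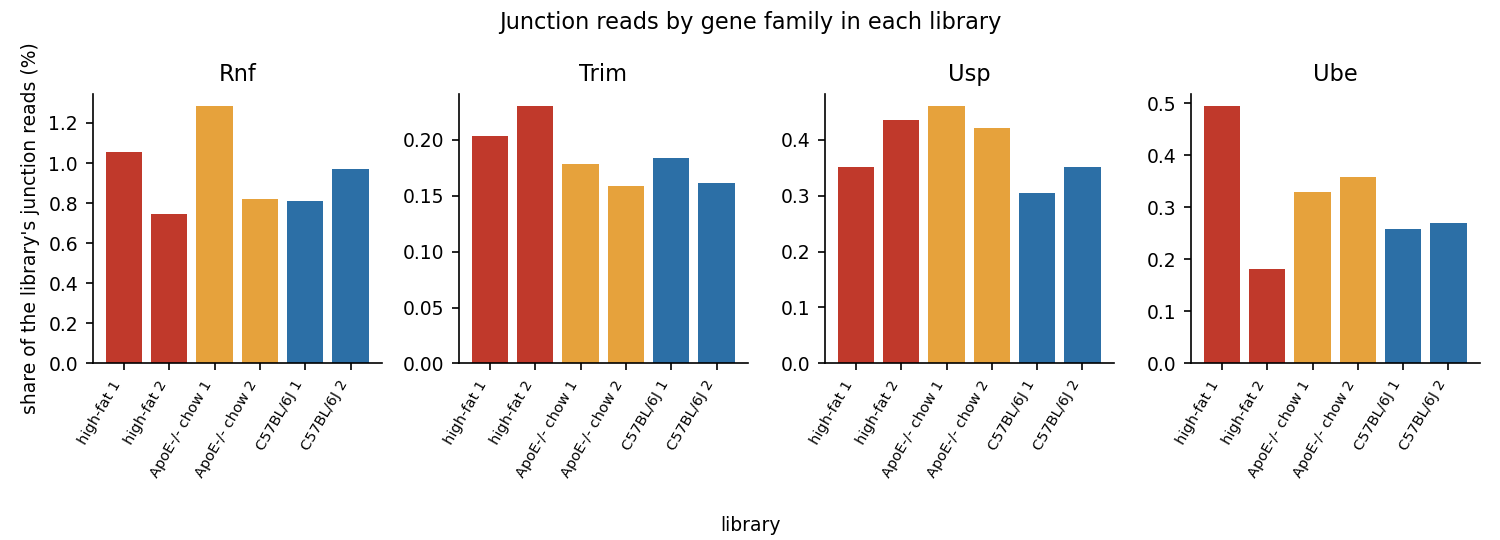
Share of each library's junction reads (%) that came from Rnf, Trim, Usp and Ube hosts; 1 bar per library, coloured by group, each panel with its own axis from 0. Rnf shares lie between 0.745% and 1.28%, Trim shares between 0.158% and 0.230%.

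The number of different circRNAs moved more than the share of reads. The set had 126 and 80 different circRNAs in high-fat, 50 and 67 in ApoE-/- chow and 73 and 29 in C57BL/6J. Thinned to the 3706 junction reads of the smallest library, 36.2 and 36.9 were left on average in high-fat, 31.7 and 34.0 in ApoE-/- chow and 28.7 and 29.0 in C57BL/6J. At equal depth the 3 groups did not overlap, with the high-fat libraries highest. For circRNAs of all hosts the thinned numbers were 2203 and 2049 in high-fat, 1847 and 1995 in ApoE-/- chow and 2009 and 1823 in C57BL/6J, where the high-fat libraries were highest too and the chow groups overlapped. The difference between the set and all hosts was not tested.

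For junction reads per host, 29 of the 96 hosts had at least 5 reads in at least 2 libraries and were tested, among 1262 hosts in all. Of the 29, 14 reached 5 reads in all 3 groups. In 2 groups it was reached by 7 in high-fat and ApoE-/- chow, 5 in high-fat and C57BL/6J, and 1 in both chow groups. Rnf4 and Usp9x met the minimum through the high-fat libraries alone. None of the 29 passed an edgeR quasi-likelihood adjusted p of 0.05 in any comparison. High-fat against ApoE-/- chow called 0.0792% of all hosts, ApoE-/- chow against C57BL/6J called 0% and high-fat against both chow groups called 0.158%. At an unadjusted p under 0.05 the numbers of the set were 0, 0 and 1, in that order of comparisons, against 4.28%, 4.12% and 5.55% of all hosts. The comparisons share libraries and are not independent of each other. DESeq2 called 0 hosts of the set as well. In CPM of each library's junction reads, 9 of 29 hosts had groups that did not overlap in high-fat against ApoE-/- chow, where the background was 34.6%. The numbers were 7 of 29 against a background of 24.9% for ApoE-/- chow against C57BL/6J, and 4 of 29 against 13.4% for high-fat against both chow groups. These shares were near the background.

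In high-fat against ApoE-/- chow the median log2 fold change of junction reads was −0.08 over the 29 hosts and 0.20 over all hosts. In ApoE-/- chow against C57BL/6J it was 0.38 against 0.15, and in high-fat against both chow groups 0.40 against 0.38. The E2 gene Ube2e3 had 23 and 8 junction reads in high-fat, against 4 and 0 in ApoE-/- chow, a log2 fold change of 2.12 ± 1.69 (SE, edgeR adjusted p = 0.999). Lower values were found for Usp34, at −1.97 ± 1.59, for Usp12, a deubiquitinase that works with a WD-repeat partner, at −1.57 ± 1.87, and for Rnf13 at −0.64 ± 0.95, each with the same edgeR adjusted p, and Rnf13 turned to 0.17 when scaled by total reads. Each of these changes was less than 2 times its SE. Ube2e3 reached the read minimum in no ApoE-/- chow library, and Usp12 reached it in no high-fat library. In this comparison the minimum thus favoured the direction found for Ube2e3 and for Usp12.

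The gene of the set that came nearest to the threshold in high-fat against both chow groups was Rnf4. It encodes a ligase that recognises proteins carrying chains of SUMO, a relative of ubiquitin. Its junction reads were 9 and 8 in high-fat, 3 and 0 in ApoE-/- chow and 0 and 0 in C57BL/6J. The log2 fold change was 3.82 ± 1.90 (SE), with an edgeR unadjusted p = 0.0445 and an adjusted p = 0.883. Rnf4 passed the read minimum only through the high-fat libraries, so its direction was fixed by that minimum and its p supports no difference. A circRNA of Rnf4 at chr5:34342522-34350838 had 9 and 6 reads in high-fat, against none in the 4 chow libraries. With a floor of 3 reads for each library at 0, its mean level in high-fat was 1.51 times the floor of ApoE-/- chow. Against the floor of both chow groups together the ratio was 0.932. These ratios take the high-fat reads as exact. This circRNA too met the minimum through the high-fat libraries alone, so the ratios support no difference. The summed macrophage and fibroblast markers were also highest in the high-fat libraries. All 8 smooth muscle hosts had a positive log2 fold change on interval reads in high-fat against both chow groups. The part of these cell types in the Rnf4 values was not tested.

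Usp9x, a large deubiquitinase encoded on the X chromosome, followed. It had 16 and 7 junction reads in the high-fat libraries, 1 and 2 in ApoE-/- chow and 1 and 0 in C57BL/6J. The groups did not overlap, at 44.2 ± 2.53 per 100000 in high-fat, 10.3 ± 4.89 in ApoE-/- chow and 1.88 ± 2.66 in C57BL/6J (SD, n = 2 each). The log2 fold change was 2.89 ± 1.5 (SE, edgeR adjusted p = 0.913) against both chow groups and 2.12 ± 1.74 (edgeR adjusted p = 0.999) against ApoE-/- chow. Usp9x also met the minimum through the high-fat libraries alone, which fixed the direction of these values. Its reads were scattered over 10 circRNAs, none with more than 6 reads in a library. The interval reads of Usp9x went another way, at 69.4 and 52.2 CPM in high-fat, 68.9 and 64.7 in ApoE-/- chow and 78.5 and 39.3 in C57BL/6J, with overlapping groups. Ube4b was the lowest in the same comparison, at −1.46 ± 1.31 (SE, edgeR adjusted p = 0.993).

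In ApoE-/- chow against C57BL/6J, the 9 Rnf hosts tested had a median log2 fold change of 0.66, beside 0.15 over all hosts, and none was called. The 2 highest values of the set in this comparison came from genes with reads in 1 of the ApoE-/- chow libraries only. Ube2g1, an E2 enzyme, had 0 and 10 reads in ApoE-/- chow and none in C57BL/6J. Ube2cbp had 0 and 9 and none. For Usp34 the reads were 19 and 2 in ApoE-/- chow and 3 and 0 in C57BL/6J, with a log2 fold change of 2.95 ± 1.82 (SE, edgeR adjusted p = 1). Ube2g1, Ube2cbp and Usp34 reached the read minimum in ApoE-/- libraries only. The minimum thus favoured higher values in ApoE-/- chow against C57BL/6J, and the values of these genes support no difference.

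Among single circRNAs, 21 of the set were tested with 1015 in all, and none was called, where the background was 0.0985%, 0% and 0.0985% in the same order of comparisons. Groups did not overlap for 7, 5 and 2 of the 21, against backgrounds of 34.2%, 22.3% and 12.9%. In high-fat against ApoE-/- chow the median log2 fold change was −0.09 over the 21 and 0.18 over all circRNAs. In ApoE-/- chow against C57BL/6J it was 0.30 and 0.19, and in high-fat against both chow groups 0.68 and 0.54. At an unadjusted p under 0.05 the numbers were 0, 1 and 1, against 5.32%, 5.71% and 6.4% of all circRNAs. The smallest unadjusted p of the set was that of 1 of the Rnf13 circRNAs described next.

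Rnf13 carried a pair of back-splice junctions that shared the start at chr3:57769040 and differed by 10 bases at the other end. On the plus strand, where Rnf13 lies, that other end is the splice donor. The shorter, chr3:57769040-57796285, spans 27246 bp and had 71 junction reads, and the longer, chr3:57769040-57796295, spans 27256 bp and had 38. The longer junction was read 14 and 4 times in high-fat, 8 and 12 in ApoE-/- chow and 0 and 0 in C57BL/6J. The shorter had 12 and 2 in high-fat, 15 and 6 in ApoE-/- chow and 36 and 0 in C57BL/6J.

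The longer junction was therefore read in the 4 libraries labelled ApoE-/- and in neither labelled C57BL/6J. One of the 4, ApoE-/- chow 1 with 8 reads, is the library whose columns bear a C57BL/6J name, and if that name is right the junction was read in a C57BL/6J library too. Its share of the pair was 53.8% (95% exact binomial interval 33.4 to 73.4%) in high-fat 1 and 66.7% (22.3 to 95.7%) in high-fat 2. In ApoE-/- chow 1 it was 34.8% (16.4 to 57.3%) and in ApoE-/- chow 2 it was 66.7% (41.0 to 86.7%). In C57BL/6J chow 1 it was 0% of 36 reads (0 to 9.74%), an interval that lies below those of the ApoE-/- libraries, and C57BL/6J chow 2 had no read of either junction. The intervals cover counting error only, and the genotype comparison of this share rests on 1 C57BL/6J library. The share was singled out after its values were seen, so the intervals are a description and not a test. As a level, the mean of the longer junction in ApoE-/- chow was 1.49 times the C57BL/6J floor of 3 reads for each library at 0. That ratio takes the ApoE-/- chow reads as exact. The edgeR unadjusted p = 0.0168 did not survive adjustment (adjusted p = 0.781), and the junction passed the minimum of 5 reads only through ApoE-/- libraries, which fixed the direction. Junction pairs within 20 bases of each other at 1 end were rare, with 2 among the circRNAs of the set, in Rnf13 and Rnf182, and 118 among the circRNAs of all named hosts.

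**Figure D3:**
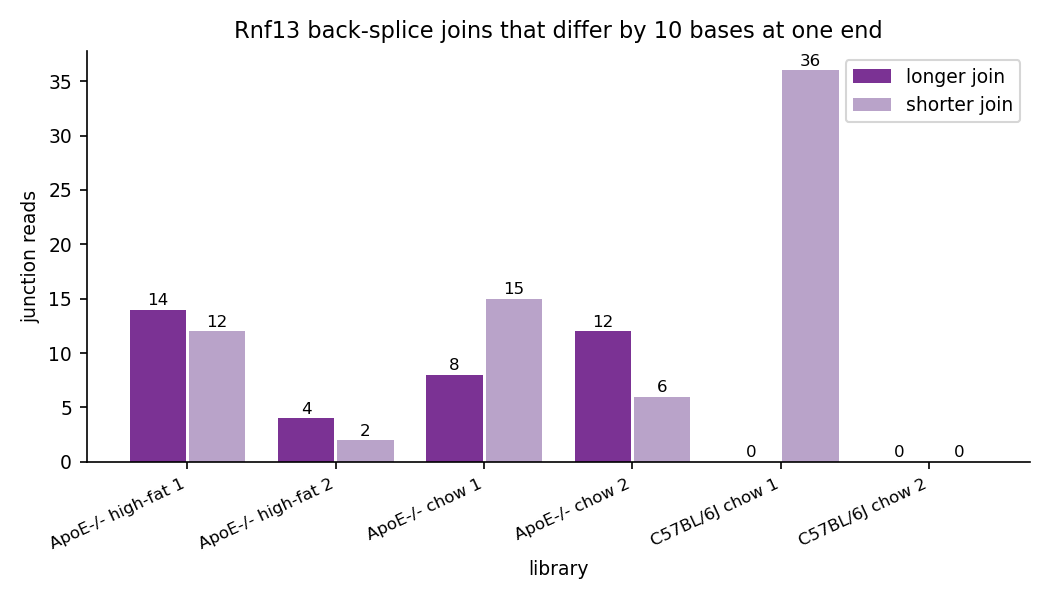
Junction reads of a pair of Rnf13 back-splice junctions that share 1 end and differ by 10 bases at the other; bars give reads in each library, the longer junction dark and the shorter pale. The longer junction has 4 to 14 reads in the ApoE-/- libraries and 0 in C57BL/6J, where the first library has 36 reads of the shorter one.

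Interval reads gave a denser measure of the same genes. They are given as CPM with the trimmed-mean (TMM) library factors of edgeR, and 87 of the 96 hosts passed a minimum of 10 reads in 2 libraries, among 6122 hosts. The lowest factor was 0.653 for C57BL/6J chow 1 and the highest 1.69 for C57BL/6J chow 2, so the CPM of this group depend on them. Interval reads grow with the length of the listed intervals, so they are compared here between groups and not between genes. A 64939-bp interval of Rnf150, chr8:82864118-82929056, held 98.7% of the interval reads of that gene and contains the pseudogene Gm46045, and Rnf150 alone gave 50.7% of the interval reads of all Rnf hosts. Interval reads were also shared unevenly between overlapping circRNAs. Of the 283 intervals, 93 were wholly covered by other listed intervals, and 87.1% of those had no interval read at all, as did 87.7% of such intervals over all named hosts.

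**Figure D4:**
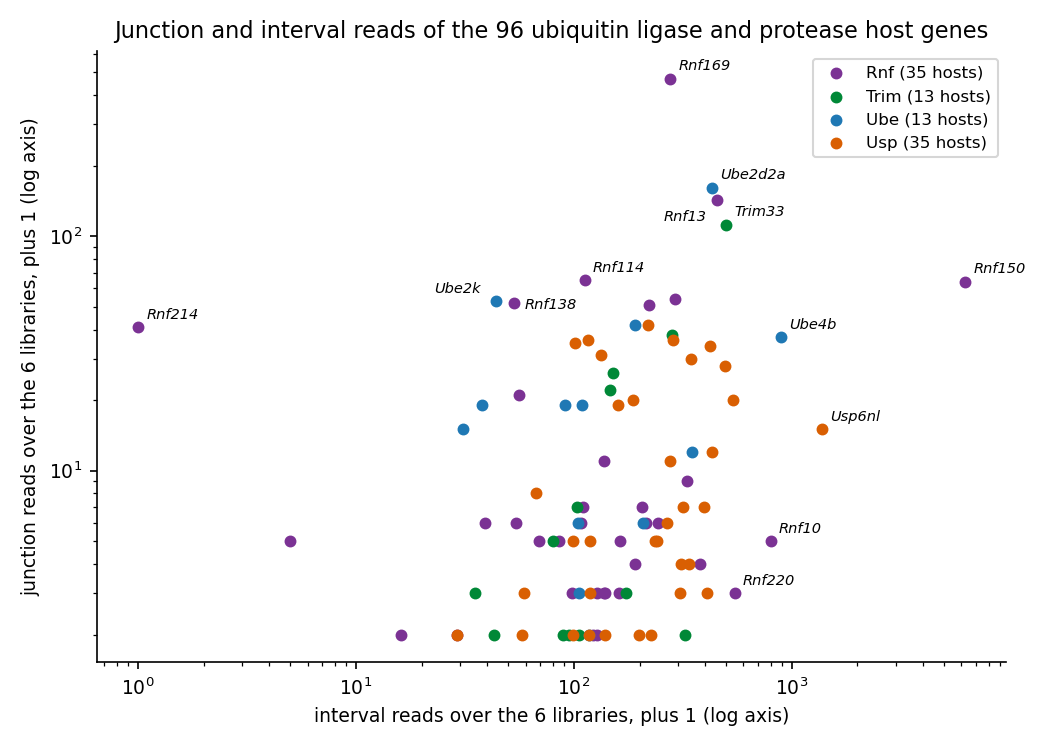
Junction reads against interval reads, each summed over the 6 libraries plus 1, on log axes, for the 96 hosts coloured by family. Rnf169 has 469 junction and 276 interval reads, Rnf150 63 and 6244, and Rnf214 40 and 0. The listed intervals of Rnf214 wholly cover one another.

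No host of the set passed the edgeR adjusted p of 0.05 on interval reads. The background was 0%, 0% and 0.049% in high-fat against ApoE-/- chow, ApoE-/- chow against C57BL/6J and high-fat against both chow groups, and DESeq2 called 0 hosts of the set. At an unadjusted p under 0.05 the numbers were 0, 3 and 1 of 87, against 2.04%, 2.63% and 2.91% of all hosts. For ApoE-/- chow against C57BL/6J that number of 3 was 0 without ApoE-/- chow 1, 7 without C57BL/6J chow 1 and 6 without C57BL/6J chow 2. For high-fat against both chow groups the number of 1 was 3 without high-fat 1, 2 without ApoE-/- chow 1 or without ApoE-/- chow 2 and 8 without C57BL/6J chow 1. Groups did not overlap for 21, 24 and 7 of the 87, against backgrounds of 32%, 25.3% and 10.3%. The medians of the set were 0.02, −0.10 and 0.04 on the log2 scale, against 0.03, −0.02 and 0.02 over all hosts, after TMM scaling. As a share of all interval reads the set was at 0.311% and 0.260% in high-fat, 0.302% and 0.377% in ApoE-/- chow and 0.208% and 0.557% in C57BL/6J, where the C57BL/6J libraries were the lowest and the highest.

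Usp42, a deubiquitinase of p53, had the smallest unadjusted p of the set on interval reads. It was at 20.3 and 26.1 CPM in high-fat, 15.8 and 14.1 in ApoE-/- chow and 1.89 and 6.55 in C57BL/6J, so that the groups stood in order without overlap. It reached 10 reads in ApoE-/- libraries only, which fixed its direction against C57BL/6J. The log2 fold change was 1.51 ± 0.57 for high-fat against both chow groups (edgeR unadjusted p = 0.0130, adjusted p = 1) and 1.78 ± 0.76 for ApoE-/- chow against C57BL/6J (unadjusted p = 0.0253, adjusted p = 1.00). Usp32, a membrane-bound deubiquitinase, was at 44.2 and 41.6 CPM in high-fat, 25.5 and 31.2 in ApoE-/- chow and 62.4 and 60.6 in C57BL/6J. It was lowest in ApoE-/- chow, by −1.11 ± 0.47 against C57BL/6J (edgeR unadjusted p = 0.0234, adjusted p = 1.00), and its circRNA intervals include the pseudogenes Gm9365 and Gm51870. Usp12 was lowest in ApoE-/- chow too, with 27.6 and 23.7 CPM in high-fat, 8.95 and 17.9 in ApoE-/- chow and 50.1 and 18 in C57BL/6J, and a log2 fold change of −1.34 ± 0.59 (edgeR unadjusted p = 0.0299, adjusted p = 1.00) for ApoE-/- chow against C57BL/6J.

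After TMM scaling, both Usp13 and Usp25 were lowest in high-fat and highest in C57BL/6J. Usp13 was at 24.7 ± 1.96 CPM in high-fat, 38.3 ± 2.59 in ApoE-/- chow and 47.0 ± 1.70 in C57BL/6J (SD, n = 2 each), and −0.78 ± 0.42 (SE, edgeR adjusted p = 1) in high-fat against both chow groups. Usp25, which acts in inflammatory signalling, was at 36.0 ± 8.18 CPM in high-fat, 47.7 ± 6.51 in ApoE-/- chow and 68.4 ± 0.463 in C57BL/6J. Its log2 fold change was −0.66 ± 0.41 (SE, edgeR adjusted p = 1). C57BL/6J chow 1 and 2 had 51 and 56 reads of Usp13 and 72 and 84 of Usp25, among 1655186 and 775094 interval reads. The order of the chow groups for these genes thus depends on the TMM factors. So do the close C57BL/6J values of both genes and of Usp32. After this scaling Usp13 had small spreads within groups, but the edgeR test shares its estimate of spread between genes and did not call it.

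The genes with the most interval reads in 3 of the families showed no called difference. Rnf150 was at 712 and 764 CPM in high-fat, 797 and 823 in ApoE-/- chow and 583 and 1037 in C57BL/6J. Usp6nl was at 167 and 148.5 CPM in high-fat, 168 and 169.5 in ApoE-/- chow and 121 and 260.2 in C57BL/6J. For Ube4b the values were 105 and 153 CPM in high-fat, 104 and 105 in ApoE-/- chow and 73.8 and 130.1 in C57BL/6J. C57BL/6J chow 1 was the lowest library for all 3 genes, and C57BL/6J chow 2 the highest for Rnf150 and Usp6nl. Among the rest, Rnf10 averaged 100.5 ± 34.2 CPM, the Wnt-linked ligase Rnf220 70.6 ± 15.1, Usp24 67.0 ± 16.9, Trim2 41.4 ± 12.8 and Ube2r2 43.4 ± 12.2 (SD, n = 6).

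For the genes that led on junction reads, interval levels overlapped between groups. Rnf169 was at 39.9 and 33.5 CPM in high-fat, 56.5 and 23.1 in ApoE-/- chow and 43.5 and 9.002 in C57BL/6J. Ube2d2a was at 103 and 27.7 CPM in high-fat, 34.4 and 52.1 in ApoE-/- chow and 88.9 and 11.5 in C57BL/6J, low in the 2 libraries that had no junction read of it. Trim33 was at 82.3 and 56.3 CPM in high-fat, 75.1 and 37.2 in ApoE-/- chow and 78.5 and 42.6 in C57BL/6J. Usp18 was at 15.96 and 9.79 CPM in high-fat, 0.689 and 10.4 in ApoE-/- chow and 7.57 and 4.09 in C57BL/6J, with overlapping groups. Other genes with an unadjusted p among the 3 smallest of a direction, Rnf19b, Usp8, Trim2, Rnf40, Rnf157, Rnf216, Ube2k, Trim24 and Ube2e2, all had larger unadjusted p than 0.05.

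**Figure D5:**
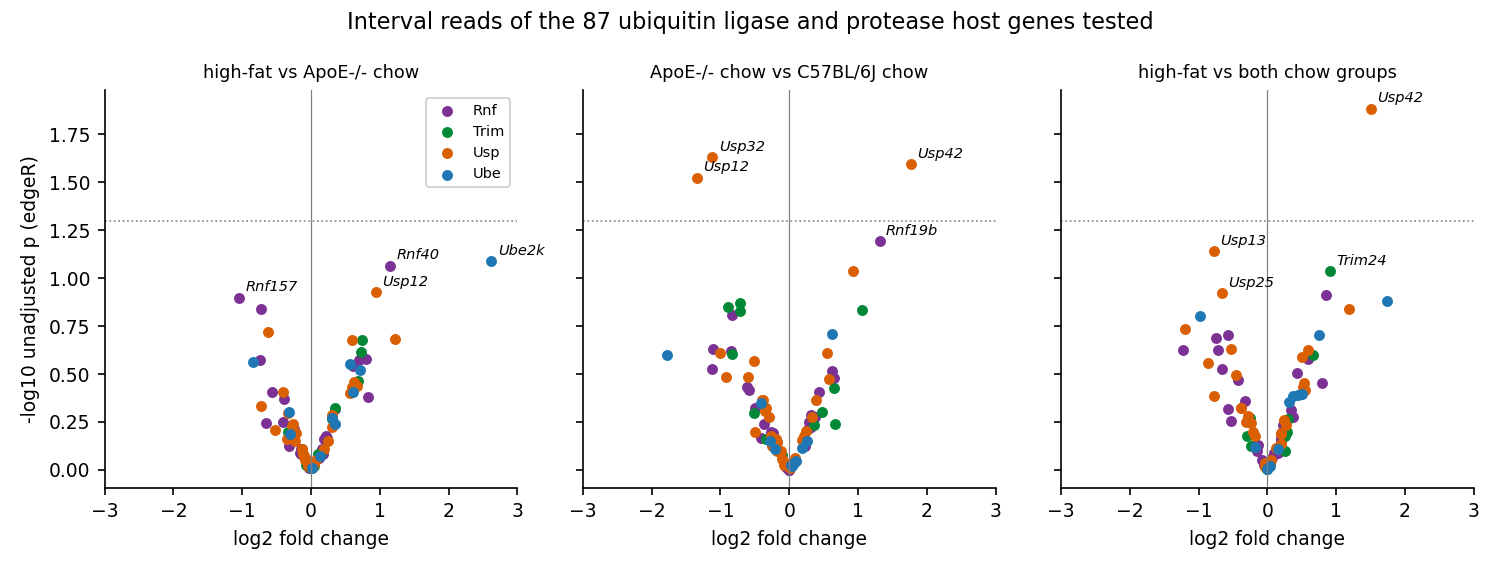
Log2 fold change of interval reads against the unadjusted edgeR p-value (-log10 scale) for the 87 hosts tested, 1 panel per comparison; the dotted line marks 0.05. The 3 hosts above the line in the middle panel are Usp32, Usp42 and Usp12, and Usp42 is the one above it in the right panel.

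Other genes of ubiquitin transfer and removal were hosts as well. On interval reads 0 of 8 E1 enzymes tested, 0 of 16 HECT ligases, 0 of 21 cullins and their substrate receptors, 0 of 34 other ligases, 0 of 11 other deubiquitinases and 0 of 19 proteasome subunits were called by edgeR in any comparison. Cullins and receptors had the lowest median in high-fat against both chow groups, at −0.24, beside 0.02 over all hosts. On junction reads 8 HECT ligases passed the minimum, with a median of 0.83 in high-fat against ApoE-/- chow, beside 0.20 over all hosts. In ApoE-/- chow against C57BL/6J their median was −0.43, beside 0.15, and in high-fat against both chow groups 0.19, beside 0.38, and none was called.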

How the data were processed

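Per the submitters' processing notes, TopHat and HTSeq and the builds GRCm38 and mm10 were used. Roles, versions, the program that called back-splice junctions and the strand setting are not given in the sources used here. The deposited count and junction columns hold raw counts per circRNA, and the deposited RPM column is the authors' count scaled to the reads of the library, used only to recover total reads. Junction reads, and the count minus junction reads, were summed per host and library. Tests used edgeR 4.0.16 in R 4.3.3 (quasi-likelihood, TMM, 6 libraries in 1 fit, 3 residual degrees of freedom), fitted on all hosts or circRNAs with at least 5 junction or 10 interval reads in 2 libraries, with Benjamini-Hochberg adjustment at 0.05. The alternative was DESeq2 1.42.0. SEs were derived from the F statistic. Thinning used the hypergeometric expectation. The 2133 circRNAs with no named host stayed out of host tests. Named genes are the 3 smallest p in each direction and comparison, the most abundant of each family, those read in all libraries and a list of known names. One gene that this rule names is not reported here. Rnf19b to Ube2e2 in the report are named under that rule without values. The Rnf13 share, the set without Rnf169 and the genes read in 1 library were singled out after their values were seen. Members and lists were chosen with earlier results of these data known.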

Additional observations from a re-analysis of the deposited data

How the results depend on the processing

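No gene or circRNA of the set passed the threshold in any of 9 comparisons, nor in any of 123 recounts under 14 alternative settings: DESeq2, DESeq2 size factors, total-read scaling, other read minimums, the whole count column, a replicate block, only the 4 libraries compared, and each library left out. Replicate numbers did not pair the libraries (correlations of deviations −0.138 to 0.115), and with the replicate block 0 members were called. Over all hosts, calls on interval reads in high-fat against both chow groups were 3, and 102 without C57BL/6J chow 1, where the lone C57BL/6J library is assumed to vary like the others. Leaving out that library also gave 65 calls on interval reads in ApoE-/- chow against C57BL/6J, against 0, and 5 on junction reads per host in high-fat against both chow groups, against 2. All other settings gave at most 4 calls over all features of any measure. Of 654 values for 54 named log2 results, 640 kept direction and side, and 14 turned sign. Total-read scaling moved the median of all hosts on junction reads to 0.90, against 0.20 with TMM, in high-fat against ApoE-/- chow and turned Rnf13 to 0.17. The whole count column turned Usp34 to 0.14, Usp9x to −0.017 and Usp12 to 0.68 in high-fat against ApoE-/- chow, Ube4b to 0.0075 in ApoE-/- chow against C57BL/6J, Ube4b to 0.26 and Usp12 to 0.13 in high-fat against both chow groups, and the Usp34 circRNA to 0.10 (high-fat against ApoE-/- chow) and −0.29 (ApoE-/- chow against C57BL/6J). This column is mostly interval reads by construction. With 1 library left out, Ube4b ranged from −1.96 to 0.12 (highest without C57BL/6J chow 2) and the Usp28 circRNA from −5.82 to 4.76 (positive without ApoE-/- chow 2 or C57BL/6J chow 1) in ApoE-/- chow against C57BL/6J. In high-fat against both chow groups Usp28 ranged from −5.63 to 0.069 (highest without high-fat 1) and the shorter Rnf13 junction from −2.55 to 1.91 (highest without C57BL/6J chow 1). The cause was not tested.

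Depth limits most junction results: 52 of 96 hosts had at most 5 reads, and 29 were tested. The 3706 junction reads of C57BL/6J chow 2 leave most hosts at 0 there. Without the ApoE-/- chow library whose columns carry a C57BL/6J name, unadjusted p under 0.05 on interval reads in ApoE-/- chow against C57BL/6J fell to 0 members, against 3 with it. The intervals of 16 circRNAs of the set hold another RefSeq gene.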
